A study of Mus musculus with 8 samples.

Results

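The genes described here are 37 messages of the oligodendrocyte lineage, the cells that make myelin in the brain. They are textbook markers of the lineage, chosen by name with earlier results of these data known, and all 37 were found among the 56691 genes of the deposited read-count table. By the stage at which each is best known, 3 are pan-lineage transcription factors, 3 mark precursor cells, 4 mark differentiating cells and 27 mark mature cells.

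The libraries hold ribosome-associated messenger RNA of the mouse ventral tegmental area, a midbrain region with many dopamine neurons. All mice carried 1 X chromosome (genotype written over Y) and received the same viruses there. AAV-TH-Cre drives Cre recombinase from the tyrosine hydroxylase promoter, and AAV-Flex-NBL10 carries the HA-tagged ribosomal protein that Cre switches on and through which ribosomes are collected. The 4 libraries of Ogt flox+/Y mice (replicates 2, 3, 4 and 5) are called knockdown, and the 4 of Ogt flox-/Y mice (replicates 3, 4, 5 and 6) control. Ages are not given. Because nothing in the labels states that each replicate is its own animal, the p-values reflect the variation among these libraries alone, and part of it may be technical. The promoter aims Cre at cells that make tyrosine hydroxylase and not at oligodendrocytes, so these genes are best known from cells that the tag was not aimed at. Which cells their reads came from was not tested.

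Libraries held 49802305 to 147747191 counted reads. Ogt, the targeted gene, had 108 to 159 CPM (reads of a gene per 1000000 counted reads, scaled between libraries by trimmed mean of M values, TMM) in controls and 36.0 to 74.4 CPM in knockdown. Its log2 fold change was -1.34 (SE 0.23, edgeR adjusted p = 0.00243), in the direction of the labels. Th, which encodes tyrosine hydroxylase and marks the targeted neurons, was present in every library, with 435 to 1241 CPM in controls and 180 to 282 CPM in knockdown. Control replicate 3 stood apart in vessel and choroid plexus markers, and knockdown replicate 2 had the most reads of the lineage. Many of the results that rest on either are given with and without it.

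Oligodendrocytes arise from dividing precursor cells that carry the growth factor receptor PDGFRA and the proteoglycan NG2. Transcription factors such as SOX10 and the OLIG proteins are kept through the lineage, and MYRF switches on the myelin genes as precursors differentiate. Mature cells wrap axons in a membrane rich in a few proteins, in galactolipids and in cholesterol, and their gap junctions couple them to each other and to astrocytes.

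All 37 genes passed the filter on low counts, and 20 were higher in knockdown, 0 were lower and 17 did not pass the test (edgeR quasi-likelihood test, Benjamini-Hochberg adjusted p under 0.05 over all 19912 genes tested). Of all genes tested, 13.4% were higher and 15.1% lower, against 54.05% of the lineage genes higher. DESeq2 called 22 lineage genes higher and 0 lower, against 17.5% and 17.0% of all genes. At an unadjusted edgeR p under 0.05, 24 lineage genes were higher and 0 lower. The share of all genes at that unadjusted threshold was not taken, so this count has no background beside it. Limma-voom called 26 higher and 0 lower, when 26.4% of all genes were higher. The median log2 fold change of the 37 genes was 0.70, against 0.00 over all genes tested. More cells of a type, more RNA per cell and a smaller share of reads from neurons cannot be told apart in these libraries. The cause of the rise was not tested.

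The genes together took 0.1991%, 0.1479%, 0.2161% and 0.1764% of the reads of control replicates 3, 4, 5 and 6. In knockdown replicates 2, 3, 4 and 5 they took 0.5189%, 0.3224%, 0.3818% and 0.2891%. Every knockdown library lay above every control library, with replicate 2 highest. Gene by gene, every knockdown library lay above every control library for 17 of the 37 genes, against 17.1% of all genes tested.

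**Figure D1:**
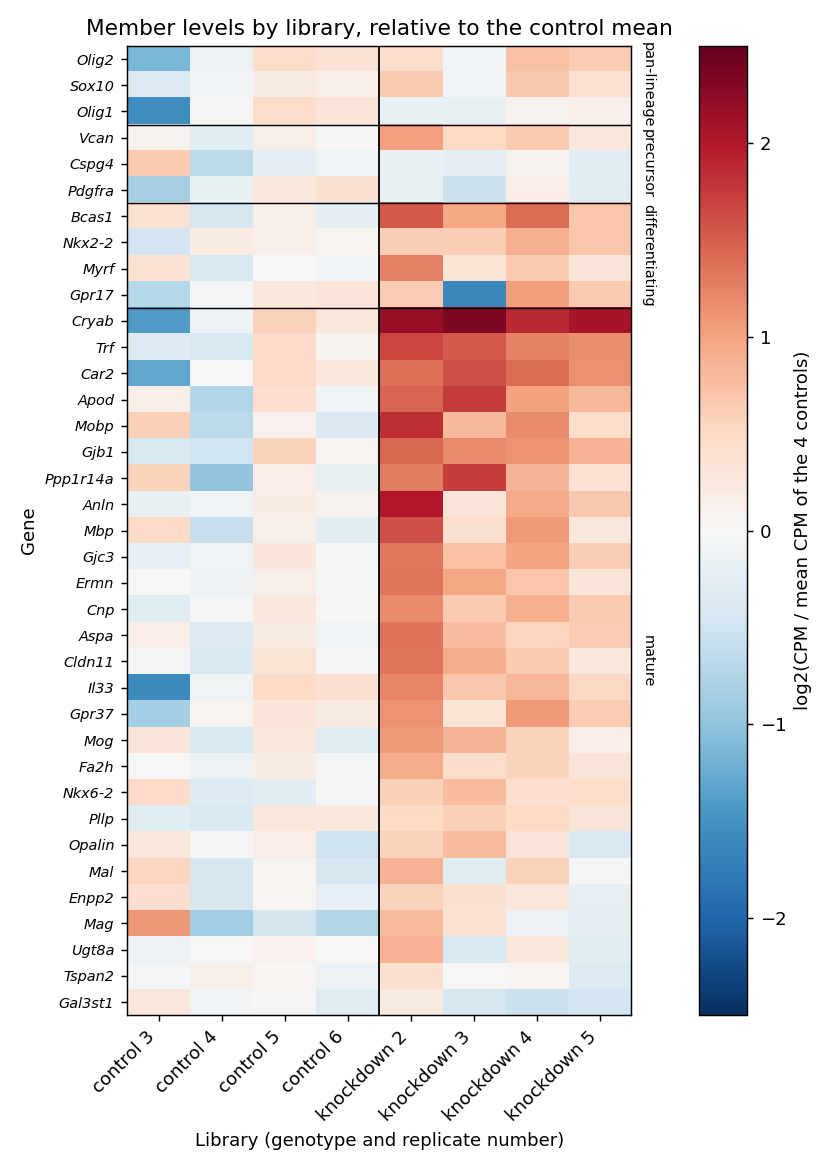
Each row is 1 of the 37 genes and each column 1 library; the colour is log2 of the CPM over the mean CPM of the 4 controls. Genes are grouped by stage (pan-lineage, precursor, differentiating, mature) and ordered within a stage by log2 fold change. Cryab is the darkest row in all 4 knockdown columns, Anln and Mobp stand out in knockdown replicate 2, and Gpr17 is blue in knockdown replicate 3, while Gal3st1, Tspan2, Cspg4 and Pdgfra show no shared rise.

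Without knockdown replicate 2, 10 of the 37 genes were higher and 0 lower, when 8.87% of 20273 genes tested were higher, and their median log2 fold change was 0.55. The 10 were Cnp, Ermn, Gjb1, Gjc3, Trf, Apod, Car2, Cryab, Bcas1 and Nkx2-2, all of them among the 20. The estimate was lower without that library for 35 of the 37 genes, the exceptions being Olig1 and Nkx2-2. The share of all genes with a lower estimate was not counted, and the median over all genes went from 0.00 to -0.02. Moves among the 35 ranged from small (Cspg4, -0.13 to -0.14, and Olig2, 0.46 to 0.45) to large (Anln, 1.14 to 0.66). Knockdown replicate 2 was the highest knockdown library for 23 of the 37 genes and for 20 of the 27 mature genes, while replicate 5 was the lowest for 23. The count also fell when control replicate 4 was left out, to 10 (8.12% of all genes higher), when control replicate 6 was left out, to 9 (8.43%), and when knockdown replicate 4 was left out, to 12 (9.26%). It was 13 with no filter on low counts (6.04%), 15 without control replicate 5 (9.87%), 18 without knockdown replicate 5 (9.26%) and 22 without both libraries numbered 3 (23.5%). The first 9 genes named above passed the test whichever single library was left out.

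**Figure D2:**
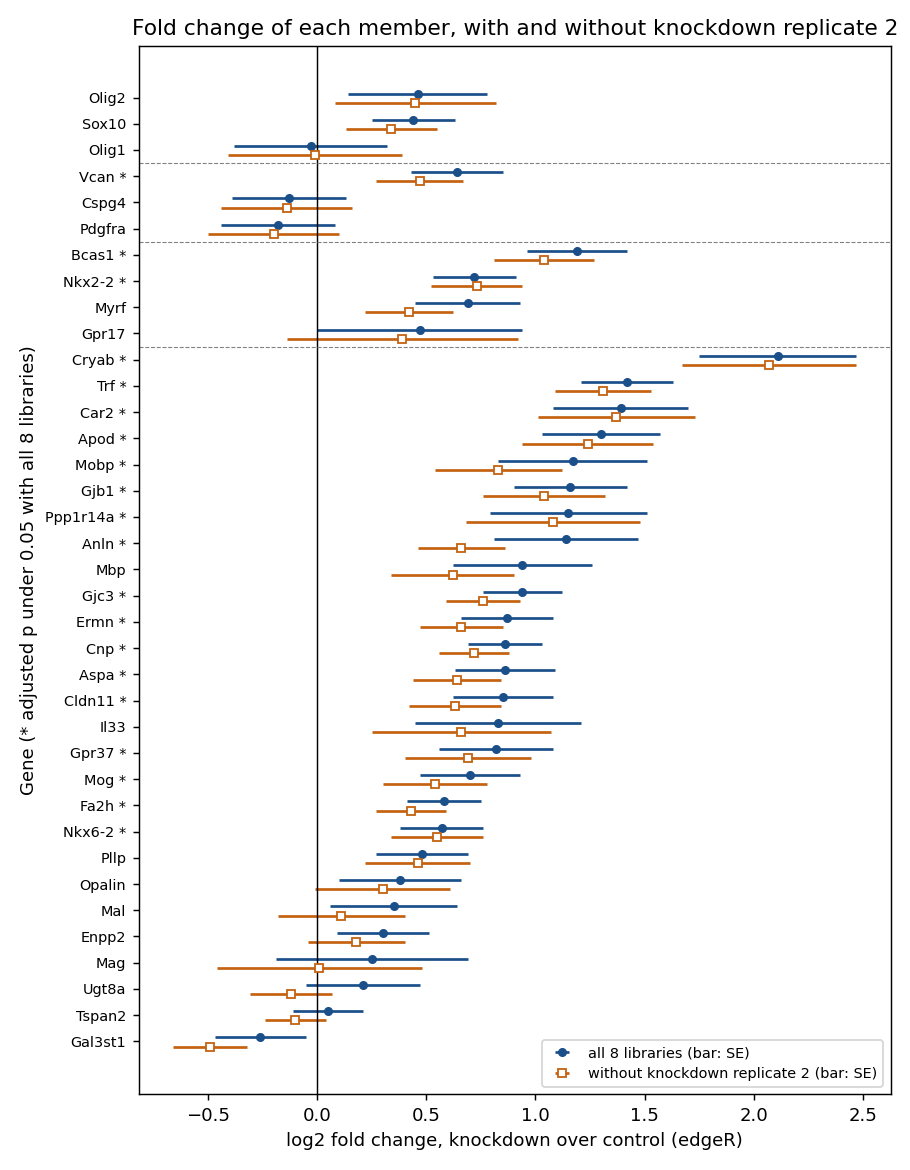
Log2 fold change of each gene (knockdown over control, edgeR) with its SE, from all 8 libraries (filled circles) and without knockdown replicate 2 (open squares); dashed lines separate the stages and an asterisk marks an adjusted p under 0.05 with all 8. Cryab stands at 2.11 and 2.07, Anln moves from 1.14 to 0.66, and Gal3st1 from -0.26 to -0.49.

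Cryab, which encodes alpha-B-crystallin, a small heat shock protein abundant in oligodendrocytes and also made by astrocytes, had the largest fold change of the 37. It stood at 30.2, 73.9, 121 and 98.1 CPM in control replicates 3, 4, 5 and 6. In knockdown replicates 2, 3, 4 and 5 it stood at 366, 404, 293 and 335 CPM. The groups were far apart, and control replicate 3 was the lowest library. The rise was 4.33-fold (log2 fold change 2.11, SE 0.36, edgeR adjusted p = 0.00255) and, without control replicate 3, the log2 fold change was 1.84 (adjusted p = 0.000159). Of its exon bases, 17.0% are shared with Hspb2 on the other strand, and reads there were not counted for either gene.

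Of the other secreted, metabolic and signalling genes of mature cells, 4 of 6 were higher. Trf encodes transferrin, the iron carrier that oligodendrocytes make. It had 61.1, 59.0, 107 and 82.4 CPM in control replicates 3 to 6 and 246, 223, 186 and 172 CPM in knockdown replicates 2 to 5. The groups did not overlap, and the rise was 2.67-fold (log2 fold change 1.42, SE 0.21, edgeR adjusted p = 0.00128). Trf was also the 1 gene of the 37 that passed with the replicate number as a block (adjusted p = 0.0484), a fit in which 2.41% of all genes were higher.

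Car2, carbonic anhydrase 2, had 34.8, 85.1, 120 and 103 CPM in the controls and 222, 260, 224 and 190 CPM in knockdown (log2 fold change 1.39, SE 0.31, edgeR adjusted p = 0.00964). Here too control replicate 3 was the lowest, and without it the log2 fold change was 1.12 (adjusted p = 0.000594). Apod, the lipid carrier apolipoprotein D, had 56.3, 30.6, 68.0 and 48.7 CPM in the controls and 139, 172, 103 and 89.4 CPM in knockdown. Its groups did not overlap and knockdown replicate 3 was the highest (2.47-fold, edgeR adjusted p = 0.00584). Gpr37, a receptor that restrains oligodendrocyte maturation in mice, rose from 25.6 ± 7.95 to 45.4 ± 11.1 CPM (SD, n = 4 each, edgeR adjusted p = 0.0401). Gpr37 missed the threshold on leaving out control replicate 4 (adjusted p = 0.0901) or 6 (0.0618), and on leaving out knockdown replicate 2 (0.123), 4 (0.114) or 5 (0.0712).

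Il33, an alarmin cytokine stored in oligodendrocyte and astrocyte nuclei, had 10.3 CPM in control replicate 3 and 29.5 to 44.0 CPM in the other controls, against 44.5 to 72.6 CPM in knockdown. Its groups did not overlap, yet it missed the threshold (log2 fold change 0.83, SE 0.38, edgeR adjusted p = 0.132), and without control replicate 3 as well (adjusted p = 0.0519). Enpp2, the lysophospholipase autotaxin, ranged from 37.6 to 67.1 CPM in controls and from 44.0 to 75.6 CPM in knockdown, which overlap (log2 fold change 0.30, adjusted p = 0.321). Without control replicate 3, the highest control library for Enpp2, the log2 fold change was 0.46 (edgeR adjusted p = 0.07955).

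Of 13 genes for myelin membrane and cytoskeleton proteins, 7 were higher and 6 did not pass the test, with a median log2 fold change of 0.85. Cnp, a phosphodiesterase that keeps cytoplasmic channels open within myelin, had 104, 123, 153 and 130 CPM in control replicates 3 to 6. It had 290, 200, 237 and 200 CPM in knockdown replicates 2 to 5. The groups did not overlap (log2 fold change 0.86, SE 0.17, edgeR adjusted p = 0.00457). Dnajc7 on the other strand shares 12.7% of its exon bases. Ermn, which encodes the cytoskeletal protein ermin, had 10.3 to 12.5 CPM in controls and 28.2, 21.9, 18.02 and 13.9 CPM in knockdown replicates 2 to 5. It rose 1.83-fold (adjusted p = 0.0126).

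Mbp, myelin basic protein, which binds the cytoplasmic faces of the compacted membrane together, was the most abundant of the 37 in CPM. It had 749, 359, 593 and 446 CPM in control replicates 3 to 6 and 1635, 711, 1128 and 653 CPM in knockdown replicates 2 to 5. Knockdown replicates 3 and 5 lay below control replicate 3, so the groups overlapped. It narrowly missed the threshold (log2 fold change 0.94, SE 0.32, edgeR adjusted p = 0.0502). It passed without control replicate 3 (log2 fold change 1.14, adjusted p = 0.0191), knockdown replicate 3 (1.09, 0.0455) or knockdown replicate 5 (1.09, 0.0395). Without knockdown replicate 2 the log2 fold change was 0.62 (adjusted p = 0.151).

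Mobp, a small basic protein of compact myelin, showed the same order of libraries within knockdown, with 593, 290, 372 and 225 CPM in replicates 2 to 5 against 248, 105, 179 and 128 CPM in the controls. It rose 2.25-fold (log2 fold change 1.17, SE 0.34, edgeR adjusted p = 0.0291). Leaving out control replicate 4 (adjusted p = 0.0741), 5 (0.0572) or 6 (0.0784) ended the call, as did leaving out knockdown replicate 2 (0.0785) or 4 (0.0628).

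The remaining 4 called genes of this group passed with all 8 libraries, each with at least 3 libraries whose removal ended the call. Anln, the septin-binding anillin, had 7.11 to 9.16 CPM in controls and 32.7 CPM in knockdown replicate 2, against 10.2 to 15.6 CPM in the other knockdown libraries. Its log2 fold change of 1.14 (edgeR adjusted p = 0.0267) became 0.66 without knockdown replicate 2 (adjusted p = 0.0501), and leaving out control replicate 4 (0.0722) or 6 (0.0579) ended the call too. Ppp1r14a, a phosphatase inhibitor, rose 2.21-fold (adjusted p = 0.0370) and kept its call only without control replicate 3 or knockdown replicate 5, missing it otherwise with 0.0559 to 0.0979. Cldn11, the claudin of the tight junctions between myelin layers, rose 1.81-fold (adjusted p = 0.0211). Cldn11 missed it when control replicate 4 (0.0679), control replicate 6 (0.0556) or knockdown replicate 2 (0.0656) was left out. Mog, a surface protein of the outermost layer, rose 1.63-fold (adjusted p = 0.0461), and missed the threshold on leaving out any library but control replicate 3 and knockdown replicate 5 (adjusted p = 0.0525 to 0.138).

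The other members of the group did not pass with all 8 libraries. Mag, an adhesion protein on the inner side of myelin that faces the axon, had 124 CPM in control replicate 3 and 31.6 to 42.2 CPM in the other controls. In knockdown it had 99.96, 75.2, 52.3 and 48.8 CPM, so that control replicate 3 lay above every knockdown library and the other 3 controls below every one (log2 fold change 0.25, SE 0.44, edgeR adjusted p = 0.714). Without control replicate 3 the log2 fold change was 0.92 (adjusted p = 0.0143). Without knockdown replicate 2 the log2 fold change of Mag was 0.01 (edgeR adjusted p = 0.994). Mal, a raft-associated membrane protein, and Opalin, a glycoprotein of myelin, overlapped between the groups (log2 fold changes 0.35 and 0.38, adjusted p = 0.409 and 0.335). The estimate for Mal was 0.11 without knockdown replicate 2 (edgeR adjusted p = 0.813) and 0.59 without control replicate 3 (0.114). Tspan2, a tetraspanin, had 66.1 to 80.4 CPM in controls and 57.6 to 96.1 CPM in knockdown (log2 fold change 0.05, SE 0.16, adjusted p = 0.845). Pllp, plasmolipin, had 3.78 to 5.97 CPM in controls and 6.15 to 7.40 CPM in knockdown (adjusted p = 0.119), but 54.1% of its exon bases are shared with the gene Gm45767, so its counts cover only part of it.

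**Figure D3:**
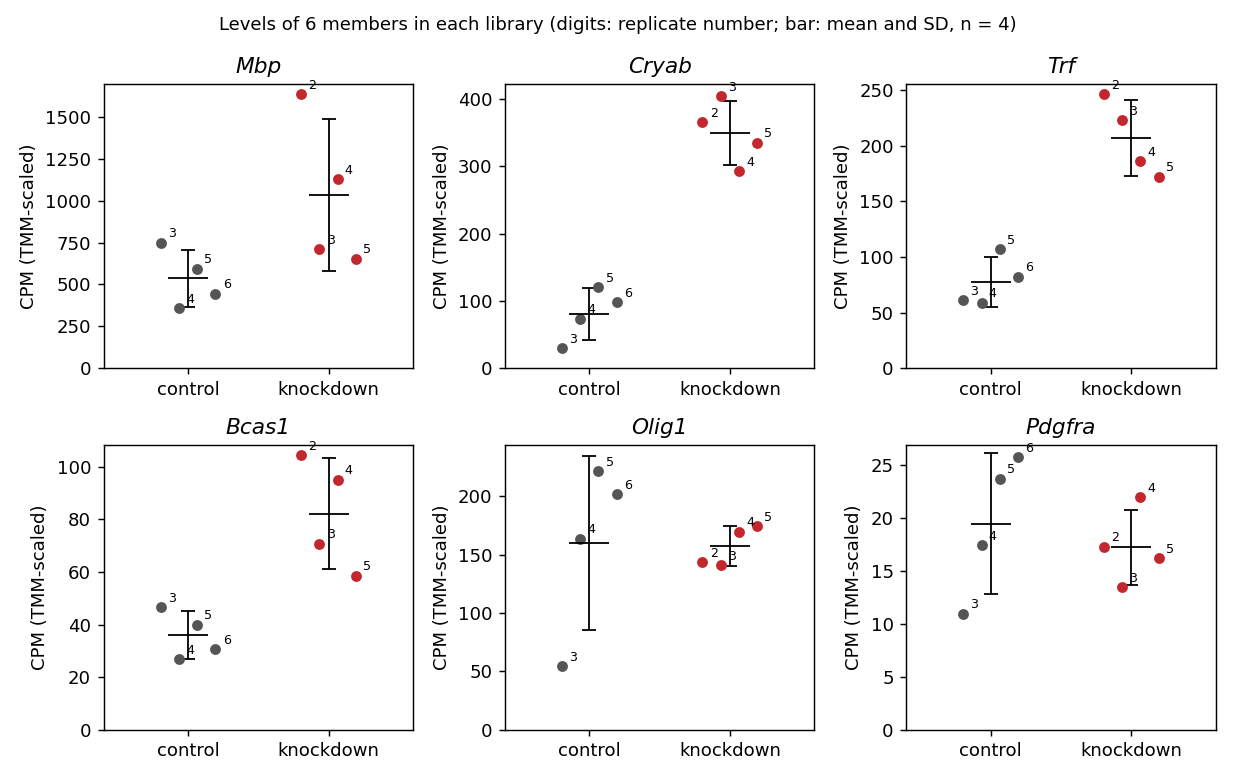
CPM of Mbp, Cryab, Trf, Bcas1, Olig1 and Pdgfra in each library (points, labelled with the replicate number), with the mean and SD of each group of 4; each panel has its own axis from 0. The groups are apart for Cryab, Trf and Bcas1, overlap for Mbp, where knockdown replicate 2 reaches 1635, and show control replicate 3 as the lowest library for Olig1 and Pdgfra.

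Promoters are shown for 3 of the higher genes with a single annotated start, to set letters chosen for lineage factors beside genes that moved together. They are Apod, whose groups were apart, Mobp, which depended on single libraries, and Ermn, which did not. Sequences are from RefSeq (GRCm38.p6, a different build from the GRCm39 coordinates of the count table), 250 bases before to 50 after the start, read 5′ to 3′ on the gene's strand. Capitals mark matches on either strand to the letters given next. CTGGNAC was set for MYRF and allows any base at N, so a match may differ from the core that MYRF binds. The Apod match to these MYRF letters is CTGGAAC, with A at N. ACAAAG and ACAATG are bound by SOX proteins. CAGCTG is an E-box, bound by basic helix-loop-helix proteins such as the OLIG factors.
Apod, chr16:31314759-31315058, minus strand: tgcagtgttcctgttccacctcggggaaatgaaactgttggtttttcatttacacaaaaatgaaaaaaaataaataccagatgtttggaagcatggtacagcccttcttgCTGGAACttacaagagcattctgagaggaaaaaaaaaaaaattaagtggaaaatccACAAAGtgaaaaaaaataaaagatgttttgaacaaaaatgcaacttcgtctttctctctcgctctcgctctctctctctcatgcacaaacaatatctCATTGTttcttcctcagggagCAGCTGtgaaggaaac
Mobp, chr9:120149492-120149791, plus strand: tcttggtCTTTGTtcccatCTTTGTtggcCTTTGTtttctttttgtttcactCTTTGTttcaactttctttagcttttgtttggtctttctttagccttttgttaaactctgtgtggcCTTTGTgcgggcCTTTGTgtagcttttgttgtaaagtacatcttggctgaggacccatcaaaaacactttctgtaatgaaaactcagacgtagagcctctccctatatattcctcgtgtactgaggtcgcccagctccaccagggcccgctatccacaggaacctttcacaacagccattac
Ermn, chr2:58052815-58053114, minus strand: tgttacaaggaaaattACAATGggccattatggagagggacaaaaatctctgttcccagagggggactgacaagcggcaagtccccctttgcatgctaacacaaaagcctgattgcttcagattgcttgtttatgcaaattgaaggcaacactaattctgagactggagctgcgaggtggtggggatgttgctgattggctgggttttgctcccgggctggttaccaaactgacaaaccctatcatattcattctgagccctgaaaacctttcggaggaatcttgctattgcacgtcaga
The Apod window held 4 matches (1 MYRF, 2 SOX, 1 E-box), the Mobp window 6, all of them SOX, and the Ermn window 1, also SOX. Of the 37 genes, 26 had a RefSeq window, with 35 windows in all. The MYRF letters were in 28.6% of these windows and 19.3% of all 32851 windows of the table. The SOX letters were in 37.1% and 28.6%, and the E-box in 11.4% and 16.3%. Among the genes with a window, the MYRF letters were in 6 of 15 genes that rose and 2 of 11 that did not pass, and the SOX letters in 5 of 15 and 5 of 11. These shares are a description without a test, and a match is not a site.

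Of 4 enzymes for myelin lipids, 2 were higher. Fa2h, which hydroxylates the fatty acids of myelin galactolipids, rose from 10.96 ± 1.04 to 16.4 ± 3.14 CPM (SD, n = 4 each, 1.497-fold, edgeR adjusted p = 0.0279) and its groups did not overlap. Aspa, which splits N-acetylaspartate into acetate for lipid synthesis, rose from 5.76 ± 0.985 to 10.5 ± 2.92 CPM (SD, n = 4 each, 1.82-fold, adjusted p = 0.0193). Without control replicate 4 or 6 or knockdown replicate 2 both missed the threshold (adjusted p = 0.0922, 0.0795 and 0.0848 for Fa2h, and 0.0646, 0.0586 and 0.0565 for Aspa), and Fa2h also without knockdown replicate 4 (0.0681).

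The enzymes of the next steps of the same path gave other values. Ugt8a, which adds galactose to ceramide, had 12.3, 13.4, 14.6 and 13.6 CPM in the controls and 24.7, 10.4, 16.2 and 11.1 CPM in knockdown. Knockdown replicates 3 and 5 lay below every control (log2 fold change 0.21, SE 0.26, edgeR adjusted p = 0.579), and the estimate was -0.12 without knockdown replicate 2 (adjusted p = 0.708). Gal3st1, which sulphates galactosylceramide to sulphatide, had 17.8, 14.1, 14.9 and 11.95 CPM in the controls and 17.2, 10.97, 10.2 and 10.5 CPM in knockdown. It was the gene of the 37 with the lowest estimate (log2 fold change -0.26, SE 0.21, adjusted p = 0.380), and without knockdown replicate 2 the estimate was -0.49 (adjusted p = 0.0792).

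Both gap junction genes were higher. Gjb1, connexin 32, had 4.06, 3.80, 8.004 and 5.59 CPM in control replicates 3 to 6 and 14.5, 12.1, 11.6 and 9.74 CPM in knockdown replicates 2 to 5. Its groups did not overlap (log2 fold change 1.16, SE 0.26, edgeR adjusted p = 0.00887). Gjc3, connexin 29, had 20.3 to 28.7 CPM in controls and 58.6, 38.6, 46.1 and 35.8 CPM in knockdown (log2 fold change 0.94, SE 0.18, adjusted p = 0.00494). Knockdown replicate 2 was highest for both.

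None of the 3 pan-lineage transcription factors passed the edgeR test with all 8 libraries; 1 had an unadjusted p under 0.05, limma-voom called 1 and DESeq2 called 0. Sox10 had 15.4 to 22.4 CPM in controls and 18.6 to 31.2 CPM in knockdown (log2 fold change 0.44, SE 0.19, adjusted p = 0.118), and it passed without knockdown replicate 3, its lowest knockdown library (log2 fold change 0.57, adjusted p = 0.0266). The estimate for Sox10 was 0.34 both without control replicate 3 (edgeR adjusted p = 0.181) and without knockdown replicate 2 (0.285). Olig1 had 54.2, 163, 222 and 201 CPM in the controls and 144, 141, 170 and 174 CPM in knockdown. Control replicate 3 lay far below the rest, and the knockdown libraries lay among or below the other 3 controls. The log2 fold change was -0.03 (SE 0.35, edgeR adjusted p = 0.964), and -0.32 without control replicate 3 (adjusted p = 0.107); it was above 0 with upper quartile scaling (0.07). Olig2 had 11.3 CPM in control replicate 3 and 22.6 to 34.3 CPM in the other controls, against 23.6 to 41.9 CPM in knockdown (log2 fold change 0.46, adjusted p = 0.308). Without control replicate 3 the log2 fold change of Olig2 was 0.21 (edgeR adjusted p = 0.464).

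Nkx6-2, a homeodomain factor kept in mature cells, rose from 28.1 ± 7.74 to 41.7 ± 4.92 CPM (SD, n = 4 each, 1.48-fold, edgeR adjusted p = 0.0480). Control replicate 3, at 39.2 CPM, lay within the knockdown range. The call stood without control replicate 3 (adjusted p = 0.00210) and was lost when any other library was left out (adjusted p = 0.0739 to 0.142).

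Of 4 genes of differentiating cells, 2 were higher. Bcas1, which marks cells that are starting to make myelin, had 46.7, 26.8, 39.9 and 30.5 CPM in the controls and 104, 70.7, 95.0 and 58.5 CPM in knockdown. Its groups did not overlap (2.28-fold, log2 fold change 1.19, SE 0.23, edgeR adjusted p = 0.00418). Nkx2-2, a homeodomain factor of the switch from precursor to myelinating cell that some neurons use too, had 4.63 to 7.33 CPM in controls and 9.91 to 12.2 CPM in knockdown. It rose 1.64-fold (adjusted p = 0.0199), but not when control replicate 6 (0.0518) or knockdown replicate 4 (0.0755) or 5 (0.0535) was left out.

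Myrf, the activator of myelin genes, had 11.1 to 18.8 CPM in controls and 35.2, 18.6, 23.0 and 17.95 CPM in knockdown, and missed the threshold (log2 fold change 0.69, SE 0.24, edgeR adjusted p = 0.0565). It passed without control replicate 3 (adjusted p = 0.0217) or knockdown replicate 3 (0.0436). Without knockdown replicate 2, its highest library, the log2 fold change of Myrf fell to 0.42 (edgeR adjusted p = 0.165). Gpr17, a receptor of the short stage between precursor and myelinating cell, had 13.9, 21.8, 27.1 and 27.8 CPM in the controls. In knockdown it had 35.3, 7.42, 46.9 and 35.8 CPM, so that replicate 3 was the lowest and the other 3 the highest of all 8 libraries. The log2 fold change was 0.47 (SE 0.47, adjusted p = 0.494), and 0.79 without knockdown replicate 3 (adjusted p = 0.0367). With 1 library left out, the lowest estimate for Gpr17 was 0.18 and the largest edgeR adjusted p was 0.830.

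Of 3 precursor genes, 1 was higher, and the median log2 fold change was -0.13. Pdgfra, the receptor for platelet-derived growth factor that drives precursor division, had 10.95, 17.4, 23.7 and 25.7 CPM in the controls and 17.3, 13.4, 21.9 and 16.2 CPM in knockdown. The groups overlapped (log2 fold change -0.18, SE 0.26, edgeR adjusted p = 0.650). Cspg4, which encodes NG2 and is also made by pericytes, had 19.1 CPM in control replicate 3 and 7.64 to 11.2 CPM in the other controls, against 10.02 to 12.9 CPM in knockdown (adjusted p = 0.739). Its estimate was -0.13 with all libraries and 0.17 without control replicate 3. Vcan, the matrix proteoglycan versican, had 4.13 to 5.59 CPM in controls and 6.13 to 10.3 CPM in knockdown (1.56-fold, adjusted p = 0.0455). Leaving out any 1 of 5 libraries (control replicates 4, 5 and 6, knockdown replicates 2 and 4) ended the call for Vcan (adjusted p = 0.0763 to 0.138).

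Set side by side by stage, 17 of 27 mature, 2 of 4 differentiating, 1 of 3 precursor and 0 of 3 pan-lineage genes were higher, against 13.4% of all genes tested. Median log2 fold changes were 0.85, 0.71, -0.13 and 0.44. Without knockdown replicate 2 the counts were 8, 2, 0 and 0, when 8.87% of 20273 genes were higher, and the medians 0.64, 0.58, -0.14 and 0.34. Without control replicate 3 the counts were 19, 3, 1 and 0, when 18.1% of 20626 genes were higher, and the medians 0.84, 0.71, 0.17 and 0.21. No test compared the stages with each other, and 3 of the stages hold 3 or 4 genes. On the lists of further lineage genes described below, medians with all 8 libraries were 0.57 for 22 mature and 0.57 for 9 differentiating genes. The median of 8 further precursor genes was 0.49, so the low precursor median was not seen on that list.

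The summed level of the mature genes was 1237 to 1852 CPM in controls and 2383 to 4387 CPM in knockdown, with no overlap. That of the differentiating genes was 67.1 to 88.9 CPM and 107 to 185 CPM, also with no overlap. That of the precursor genes was 29.2 to 42.0 CPM and 31.0 to 42.8 CPM, and that of the pan-lineage factors 81.0 to 278 CPM and 183 to 243 CPM, both overlapping.

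**Figure D4:**
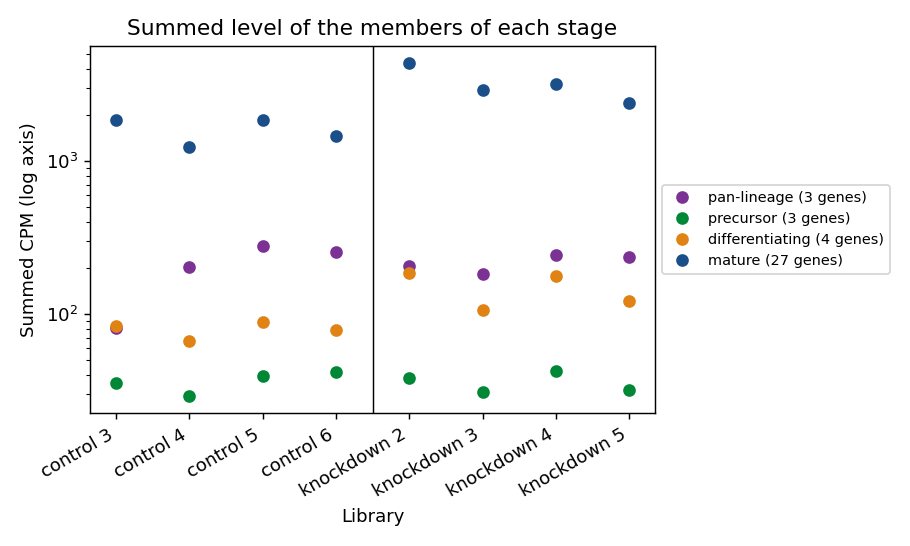
Summed CPM of the genes of each stage (log axis) in each of the 8 libraries. The mature and differentiating sums of all 4 knockdown libraries lie above those of all 4 controls, while the precursor sums share 1 range and the pan-lineage sum of control replicate 3 lies at 81.0.

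Per length of exon, the gene with the highest mean in controls was a transcription factor rather than a myelin protein. The length is that of all annotated exons of a gene together (8469 bases for Mbp). In controls Olig1 had the highest level, at 74.1 CPM per kb, followed by Mbp (63.4), Cryab (54.6), Car2 (35.3) and Cnp (35.0). In knockdown Cryab led with 236 CPM per kb, then Mbp with 122, Car2 with 92.5 and Olig1 with 72.7. The control levels of Olig1, Mbp and Cryab did not differ beyond their spread between libraries (SD 74.6, 171 and 38.7 on means of 160, 537 and 80.7 CPM). Vcan was the lowest, with 0.349 CPM per kb in controls.

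The 2 libraries that stood apart did so in different ways across the 37 genes. Control replicate 3 was the highest control library for 13 genes, among them Mbp, Mag, Mal, Mobp, Opalin and Nkx6-2, and the lowest for 14, among them Olig1, Olig2, Pdgfra, Car2, Cryab, Il33 and Gpr37. Without it, 23 of the 37 genes were higher, the 20 and Mbp, Mag and Myrf. Without control replicate 3 and knockdown replicate 2 together, a setting chosen after seeing the data, 18 were higher and 0 lower, when 15.5% of 19893 genes were higher. Of these 18, 15 were among the 20.

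Other genes of the lineage had calls in both directions. Of 47 genes on a list of further oligodendrocyte genes, 13 were higher, 5 lower and 29 did not pass, with a median log2 fold change of 0.49. The higher genes were 27.66% of the list, against 13.4% of all genes tested. Of all genes tested 15.1% were lower, a larger share than 5 of 47. Higher genes numbered 7 when knockdown replicate 2 or control replicate 4 was left out and 18 when control replicate 3 was, with 5, 5 and 7 lower, and limma-voom called 25 higher and 7 lower. Of 22 mature genes on it, 8 were higher (2 on leaving out control replicate 4 or knockdown replicate 2, 4 on leaving out control replicate 6 and 5 on leaving out knockdown replicate 4), with the smallest p for Tmem88b, a membrane protein of myelinating cells (2.68-fold, edgeR adjusted p = 0.00363), Klk6, a secreted protease (3.30-fold, 0.00723), Evi2a (2.76-fold, 0.0168) and Prr5l (2.11-fold, 0.0217). The 2 lower ones, Tubb4a, a beta-tubulin (3.00-fold, adjusted p = 0.000162), and Cntn2, an adhesion protein of the juxtaparanode (1.57-fold, 0.0280), are made by neurons too. Snap25 and Tubb3, neuron markers, fell in the same libraries, and whether that bears on Tubb4a and Cntn2 was not tested.

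Of 8 further precursor genes, Ptprz1, a receptor phosphatase that astrocytes also make (3.71-fold, edgeR adjusted p = 0.00126), and Xylt1 (3.06-fold, 0.00451) were higher. C1ql1, a secreted synaptic organiser also made by neurons, was lower (3.68-fold, 0.00668). Of 9 further differentiating genes, Itpr2, a calcium release channel, was higher (2.37-fold, 0.00277) and Tmem163, a zinc transporter also found in neurons, lower (2.25-fold, 0.00418). Of 8 genes of sphingolipid synthesis and transfer, Gltp, a glycolipid transfer protein (2.05-fold, 0.00128), and Elovl1, which lengthens very long fatty acids (1.85-fold, 0.00639), were higher. Sptlc2, a subunit of the first enzyme of sphingolipid synthesis, was lower (1.42-fold, 0.0177).

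Markers of other cell types moved in the same libraries, and their part in these results was not tested. The 4 dopamine neuron markers fell, all 4 of 4, from a summed 1039 to 2333 CPM in controls to 294 to 466 CPM in knockdown. Of 8 microglia markers 7 were higher, among them Tyrobp and Cx3cr1, with sums of 11.98 to 24.3 CPM and 36.5 to 122 CPM. Of 8 astrocyte markers, Gfap and Slc1a2 were higher and 6 did not pass, with sums of 1488 to 5572 CPM and 9641 to 13660 CPM. The astrocyte count rested on single libraries. It was 5 of 8 when control replicate 3 was left out and 1 of 8 when control replicate 4 or 6 or knockdown replicate 2, 4 or 5 was, and DESeq2 called 5 and limma-voom 7. CPM are shares of a library, so a smaller share from neurons and a larger one from other cells cannot be told apart. Several of the genes that rose furthest here, Cryab and Car2 among them, are also made by astrocytes.

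Endothelial markers, pericyte markers, and choroid plexus and ependyma markers (1 list) had 0 calls among 6, 5 and 5 genes by edgeR with all 8 libraries. At an unadjusted p under 0.05, 0, 0 and 2 passed (Foxj1 higher and Ttr lower). DESeq2 called 0, 0 and 1, and limma-voom 4, 2 and 1, all higher. DESeq2 gave no adjusted p for any endothelial marker, and for the pericyte markers the only value it gave was 0.862. Its counts of 0 for these lists therefore do not show an absence of change. The edgeR counts of these lists rested on control replicate 3. Without it edgeR called 5 of 6, 3 of 5 and 1 of 5 higher, and the median log2 fold changes went from -2.75, -1.47 and -1.0 to 1.33, 1.11 and 0.53. Their sums in control replicate 3 were 732, 468 and 198 CPM, against at most 14.8, 22.4 and 47.0 CPM in the other controls and 22.03 to 59.1 CPM in knockdown. The 5 vascular fibroblast markers had 0 calls by edgeR (0 at an unadjusted p under 0.05) and by DESeq2, and 2 by limma-voom. They summed to 29.0 CPM in control replicate 3, to 7.70 to 8.24 CPM in the other controls and to 11.3 to 24.1 CPM in knockdown, so the overlap came from that 1 library. Without it 2 of 5 were called higher, and their median log2 fold change was 1.06 against 0.05 with it. The summed endothelial, pericyte and fibroblast levels of every knockdown library thus lay above those of the other 3 controls, as did the sum of the mature lineage genes, and their part in the results was not tested.

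Schwann cells, the myelinating cells of peripheral nerve, share several genes with this list. Of 6 of their markers, Pmp2, a fatty acid binding protein of peripheral myelin, was at 0 in every library. Dhh, a ligand that Schwann cells secrete, had 0.08 to 0.23 CPM in controls and 0.41 to 1.12 CPM in knockdown and was called higher (edgeR adjusted p = 0.0214; not when control replicate 4 or 6 or knockdown replicate 4 was left out), while Drp2, Prx, Ncmap and Egr2 were not called. The 6 genes summed to 55.2 to 73.5 CPM in controls and 44.2 to 64.7 CPM in knockdown, nearly all of it Drp2, which had 40.0 to 69.9 CPM.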

How the data were processed

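For the 8 libraries the authors deposited a single table of raw counts per gene, whole numbers with no normalization. Per the file headers, featureCounts 2.0.3 summed reads over exons of GENCODE vM30, a GRCm39 annotation, with no option set for strand, read pairs or multiple alignments. Mates thus counted singly, strand was ignored, and a read over exons of more than 1 gene counted for none. The submitters' processing notes name FastQC, Trimmomatic, STAR and, as build, mm10; this conflict of builds was not resolved. Gene IDs were matched to symbols (GENCODE M21) for 52073 of 56691; the others held 0.327% to 1.81% of reads.

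From these counts, filterByExpr left 19912 genes. TMM scaling and edgeR 4.0.16 (robust glmQLFit and two-sided glmQLFTest on genotype alone) in R 4.3.3 gave fold changes, SEs and p-values, which were adjusted across every tested gene and called under 0.05. A floor of 3 reads is 0.0203 to 0.0602 CPM, for counting error only. Members and lists were chosen with earlier results of these data known. All members are named, with up to 4 genes of each other list and direction by smallest p; Snap25, Tubb3, Th, Slc1a2, Tyrobp, Cx3cr1 and the Schwann markers without a call are named besides. For the Schwann cell list, 1 marker is not reported here and is left out of its counts and sums. Settings tried in turn were RLE or upper quartile scaling, filtering no genes or keeping those with CPM of 1 or more in 4 libraries, DESeq2 1.42.0, limma-voom (limma 3.58.1) with quality weights, a quasi-likelihood fit without the robust option, a replicate block, and libraries left out.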

Additional observations from a re-analysis of the deposited data

Results flagged for a closer look

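In each group of 4 libraries, a gene was looked at again when the gap between its highest or lowest library and the nearest other, over the group's whole range, exceeded Dixon's critical value; chance alone picks about 5% of groups. Of 74 groups (37 genes in 2 genotypes), 2 met this. Mag had 123.5 CPM in control replicate 3, against 31.59 to 42.24 CPM in the other controls. Gal3st1 had 17.19 CPM in knockdown replicate 2, against 10.15 to 10.97 CPM in the other knockdown libraries.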

How the results depend on the processing

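No lineage gene was called lower in any fit with edgeR, DESeq2 or limma-voom, and 10 genes (Pllp, Opalin, Tspan2, Ugt8a, Gal3st1, Enpp2, Olig1, Olig2, Pdgfra and Cspg4) were called in none of the 19 fits. With 1 library left out, higher lineage genes numbered 9 to 23, mature genes 8 to 19, pan-lineage 0 to 1, differentiating 1 to 4 and precursor 0 to 1; over all genes 1684 to 3723 were higher and 2140 to 3475 lower. With limma-voom 5251 genes were higher and 4967 lower, and 1 pan-lineage gene was higher. Without both libraries numbered 3 the counts were 4805 and 4760, with 1 pan-lineage and 4 differentiating genes higher. With no filter, 13 lineage genes were higher, 1 of them differentiating and 0 precursor. Without control replicate 3 and knockdown replicate 2 together, 0 precursor genes were higher. The cause of these moves was not tested.

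With the replicate number as a block, 480 genes were higher and 778 lower, and of the lineage 1 gene was higher (1 mature, 0 differentiating, 0 precursor). That fit compares the groups only within numbers 3, 4 and 5. Deviations from the group means correlated between same-numbered libraries at 0.104, 0.0987 and 0.0422 over genes, not all above 0.1, and replicate 5 of the controls correlated slightly better with knockdown replicate 4 (0.0437), so the numbers were not taken to pair the samples.

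Estimates of genes without a call changed sign in 17 cases. With 1 library left out, Olig1 and Cspg4 both ran from -0.32 to 0.17, Tspan2 from -0.10 to 0.14 and Ugt8a from -0.12 to 0.36. Olig1 went above 0 with the block (0.35), the strict filter (0.01), upper quartile scaling (0.07), and without control replicate 5 (0.17), control replicate 6 (0.10) or knockdown replicate 3 (0.02). Cspg4 did so with limma-voom (0.14), without both libraries numbered 3 (0.20), without control replicate 3 (0.17) and without it and knockdown replicate 2 (0.17), and Pdgfra with the block (0.03). Tspan2 and Ugt8a went below 0 with the block (-0.14 and -0.12), without knockdown replicate 2 (-0.10 and -0.12) and without it and control replicate 3 (-0.12 and -0.16). Of the 666 estimates of single genes under an alternative, 537 kept direction and side of the threshold, 83 lost a call and 29 gained one. Depth limits genes with few reads, and no comparison of these limits was made.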
